A study of Danio rerio with 2 samples.

Results

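The comparison set tissue at the edge of a cardiac injury against the injured tissue itself in 1 zebrafish heart at 3 days post injury (dpi). It used 19 of the 78 sections sequenced from the hearts of the series. Sections 11 to 19, the border, numbered 9, and sections 1 to 10, the injury side, numbered 10. The 21 sections from 20 to 40, the remote muscle, are given beside them as a level. The limits after sections 10 and 19 were chosen by the expression profiles of these same sections, with nppb, mki67 and myl7 as markers. Every measure from these sections counts as used in placing them, so the differences are given as a description, with no test. The study cut the ventricle of 1 adult zebrafish at 3 dpi and of 1 at 7 dpi into 12 µm cryosections, from the injury toward uninjured muscle, and sequenced each section by CEL-seq, a method that tags transcript ends in small RNA samples. Border, injury side and remote muscle came from the same wild-type animal (the label reads WT), with no drug and no transgene named in the labels. All 3 had therefore been through the same cryoinjury, a freezing wound to the ventricle wall, and no uninjured heart was compared. The labels give the animals as adult without an exact age, and the sections do not mark which cells each slice held.

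Zebrafish replace heart muscle lost to injury by division of surviving cardiomyocytes, many of which lie in the zone of muscle next to the wound. Muscle in that zone is known for reactivating genes of the embryonic heart, among them natriuretic peptides, while the wound fills with leukocytes, activated epicardium and new matrix. BMP signalling is the pathway that the title of the series ties to this process. BMP ligands bind receptor kinases that phosphorylate Smad proteins, which then switch on genes such as those of the Id family.

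The border sections held 907354 counts in genes, 44092 to 143583 per section with a median of 107765. The injury-side sections held 335003, 10842 to 64542 per section with a median of 29460. Sections 2 to 6 of the injury side fell below a depth minimum of 24571 counts, which left 5 deep injury-side sections, numbered 1 and 7 to 10. Values are counts scaled to a total of 1000000 gene counts per section or group (CPM), pooled over the sections of a group unless a section is named, and 1 count was worth 1.1 CPM in the pooled border and 2.98 CPM in the pooled injury side. A single ID without a name, ENSDARG00000080337, took 18.02% of the counts in the border, 8.76% on the injury side and 22.6% in remote muscle. Genes of the mitochondrial genome took 6.19%, 2.86% and 8.32% in the same order. Because both shares and depth moved with the groups, results are given with other scalings where these matter, and their part in any difference was not tested. In whole sections, fewer cells of a type and less RNA per cell cannot be told apart.

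The muscle marker MYL7 and the stress marker nppb were higher in the border, while the proliferation marker mki67 could not be separated between the groups at this depth. MYL7 encodes the regulatory light chain of heart myosin. Its level in border sections ran from 2923 to 10656 CPM with a median of 6269.7 CPM, against 148 to 3231 CPM with a median of 1290.4 CPM in injury-side sections. In 8 of 9 border sections it exceeded the highest deep injury-side section, number 7, and section 12 was the exception. Pooled, MYL7 stood at 6347 CPM in the border and 1728 CPM on the injury side, a fold of 3.67 (95% counting interval 3.37 to 4.01). Remote muscle held 13680.3 CPM, so the border lay between its neighbours.

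The natriuretic peptide gene nppb, a marker of stressed and embryonic heart muscle, had the 9 highest section levels of the heart in the border. Border sections held 944 to 1818 CPM with a median of 1188 CPM, against 0 to 908 CPM with a median of 434 CPM in injury-side sections. The lowest border section, number 11, stood above the highest injury-side one, number 9, so the groups did not overlap. The pooled levels were 1303 CPM in the border (1182 counts) and 597 CPM on the injury side (200 counts), a fold of 2.18 (1.88 to 2.55). Against remote muscle, with 408 CPM, the border was 3.19-fold higher (2.94 to 3.47). On the injury side the level was uneven, at 0 CPM in section 1, 228 CPM in sections 2 to 6 and 819 CPM in sections 7 to 10. The fold over the injury side was 1.92 without section 1 and 1.87 without the 5 shallow sections, both under 2-fold.

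The gene mki67, which encodes a nuclear protein of dividing cells, rested on few counts, 47 in the border and 13 on the injury side. Border sections held 11.7 to 113 CPM with a median of 45.1 CPM, against 0 to 150.1 CPM with a median of 23.3 CPM in injury-side sections, and the groups overlapped widely. The pooled levels, 51.8 CPM in the border and 38.8 CPM on the injury side, gave a fold of 1.33 with an interval from 0.711 to 2.69. Single sections decided this value. Section 11 held 27.7% of the border counts and section 1 held 46.2% of the injury-side counts, and the fold was 1.11 without section 11 and 2.18 without section 1. With border sections 13 to 19 set against sections 1 to 8 it was 0.724. Both groups stood above remote muscle, which held 10.2 CPM, and the border was 5.07-fold above it (3.11 to 8.41).

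**Figure D1:**
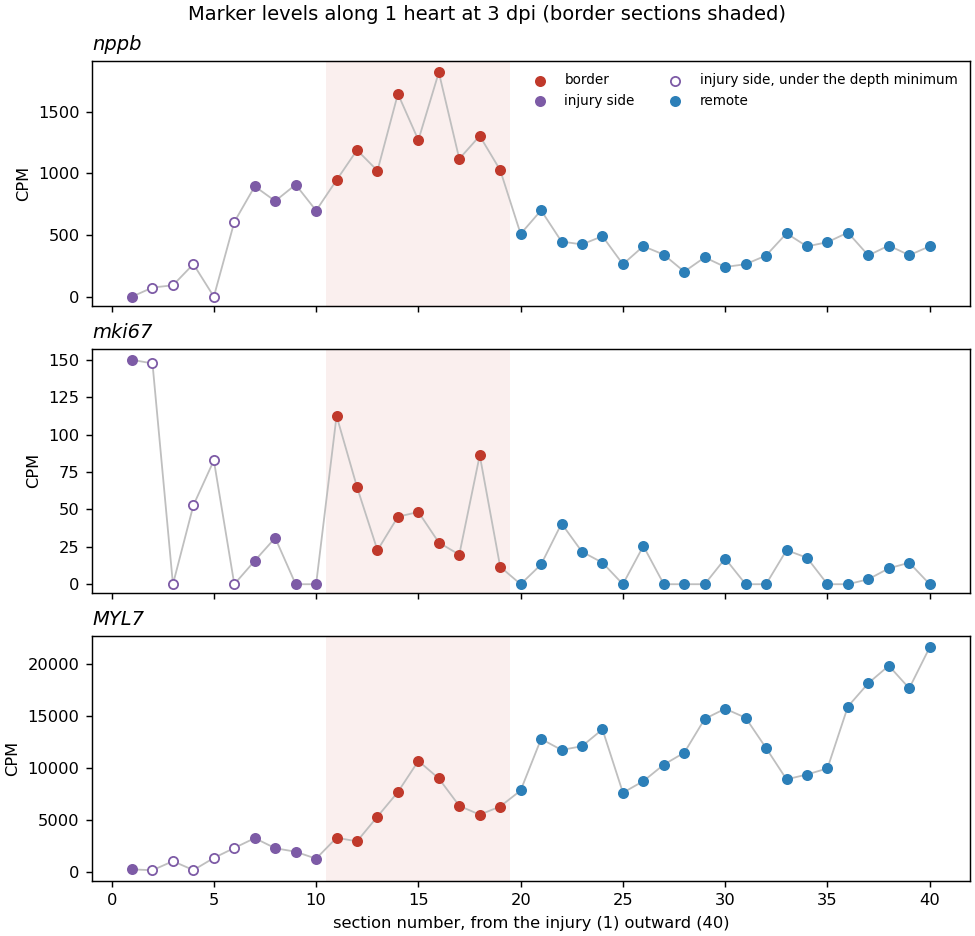
Level of nppb, mki67 and MYL7 in CPM (vertical axes) in each of the 40 sections of the 3 dpi heart (horizontal axis), with border sections shaded and open points for sections under the depth minimum of 24571 counts. The 9 border points of nppb lie between 944 and 1818 CPM, above every injury-side and remote point, MYL7 goes on increasing into remote muscle, and the border and injury-side points of mki67 overlap.

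Among 2260 genes with at least 50 counts over sections 1 to 19, the border was at least 2-fold higher for 265 genes (11.7%) and at least 2-fold lower for 240 (10.6%). With the section that held most of a gene's counts left out, so that no gene rested on 1 section, 220 genes (9.73%) remained higher and 165 (7.3%) remained lower. The balance of the 2 directions depended on scaling: it was 409 higher and 127 lower under median-of-ratios scaling, and 345 and 160 with the 10 IDs of highest count left out of the totals. Both scalings multiply every pooled ratio by 1 constant above 1, so by construction no higher gene was lost, and 85 and 111 of the 165 lower genes stayed lower. The median log2 difference over all genes was -0.19 with totals and 0.11 with median of ratios, and changes of lists are read against that shift. Every border section lay above every deep injury-side section for 50 genes (2.21%) and below for 42 (1.86%).

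The genes nearest the 2-fold limit show how gradual it was. Just inside the higher limit lay NDUFB1 at 2.003-fold, PCCA at 2.004-fold and UQCRC2 at 2.01-fold, and just outside lay MT-ND1, hsc70 and SMPX at 1.99-fold. Just inside the lower limit lay HNRNPK, NUP205 and CKB (ENSDARG00000069752), with ratios of border to injury side of 0.499, 0.498 and 0.498, and just outside lay hnrnph1l, rbm4.3 and PIK3CB at 0.500, 0.501 and 0.502.

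**Figure D2:**
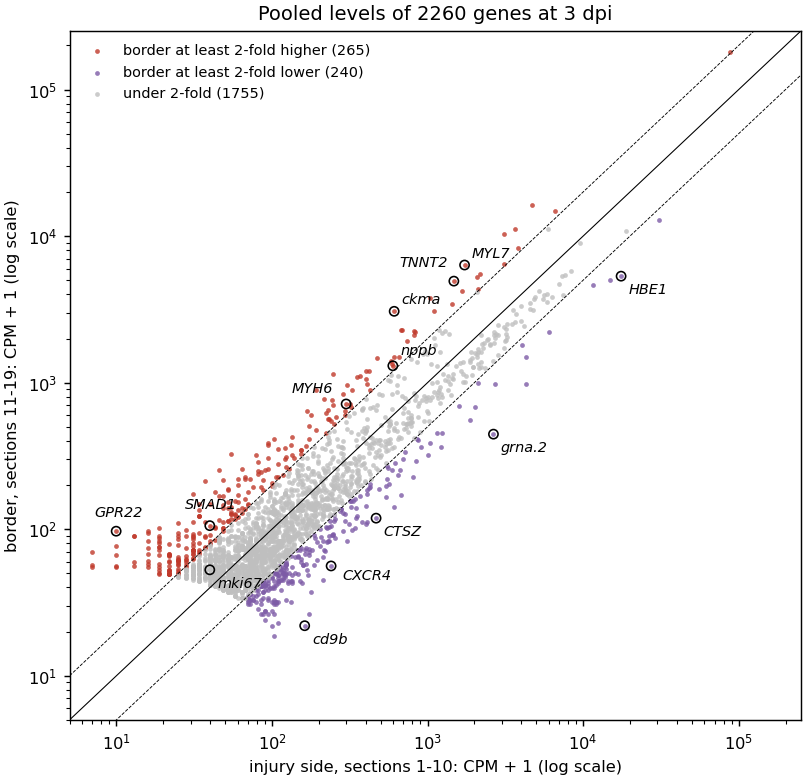
Pooled level of 2260 genes in the border (vertical axis) against the injury side (horizontal axis), both as CPM + 1 on log scales, with dashed lines at 2-fold. Red points (265 genes) are at least 2-fold higher and purple points (240 genes) at least 2-fold lower in the border, and circled genes are named in the text.

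Sarcomere genes were higher in the border as a group. Among all 2260 genes compared, 265 (11.7%) were at least 2-fold higher, and the median log2 difference was -0.19. Of 8 measured thick filament genes all 8 were at least 2-fold higher, with a median log2 difference of 1.57. Of 10 thin filament genes 8 were higher, or 7 with each gene's top section left out, and 1 lower (median 1.60). Of 14 Z-disc and stress-responsive muscle genes 10 were higher and none lower (median 1.34). The thick filament list holds the marker MYL7, and the Z-disc and stress-responsive list holds the marker nppb. Summed over a list, thick filament genes stood at 22888 CPM in the border and 7051 CPM on the injury side, and in no border section was the sum, 13344 to 30204 CPM, as low as in any injury-side section, 1126 to 11435 CPM.

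Among thick filament genes, cmlc1, a cardiac myosin light chain, held 6599.8 to 12994 CPM in border sections with a median of 11248 CPM, against 650.5 to 5019 CPM with a median of 2389 CPM on the injury side. No border section was as low as the highest injury-side section, and the pooled fold was 3.33 (3.12 to 3.55). The myosin heavy chain gene MYH7 was 2.82-fold higher (2.53 to 3.15), and MYBPC3, which binds myosin to the filament, 3.05-fold (2.52 to 3.71). MYOM2, an M-band protein that links thick filaments, was the lowest of the list at 2.37-fold (1.80 to 3.19).

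Among thin filament genes, cardiac troponin C, tnnc1a, had the largest fold at 4.68 (3.73 to 5.93). Its border sections held 563 to 2074 CPM with a median of 1129.9 CPM, against 0 to 432 CPM with a median of 188 CPM on the injury side, with no overlap. TNNT2, the troponin that ties the complex to tropomyosin, had 2608 to 8246 CPM in border sections against 375 to 2204 CPM on the injury side, again with no overlap, and a fold of 3.34 (3.04 to 3.67). The inhibitory troponin TNNI1 was 3.32-fold higher (2.90 to 3.82) and the cardiac tropomyosin tpm4a 3.09-fold (2.91 to 3.28). The member in the other direction was tpm1 (ENSDARG00000087402), at 47.4 CPM in the border and 119 CPM on the injury side, 2.52-fold lower (1.60 to 3.97). The tropomyosin gene tpm1 is also used by cells other than muscle.

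At the Z-disc, where thin filaments are anchored, actn2b was 2.67-fold higher (2.35 to 3.04) and the calcineurin-binding MYOZ2 4.11-fold (2.63 to 6.77). The small heat shock gene HSPB1 stood at 4188 CPM in the border and 1672 CPM on the injury side, 2.505-fold higher (2.29 to 2.74). The second natriuretic peptide, nppa, stood at 2098 CPM and 815 CPM in the same order (2.58-fold, 2.27 to 2.93) but at 2192 CPM in remote muscle, so unlike nppb it had no maximum in the border. HSPB8 had the smallest fold of the list, 1.35, with an interval from 0.827 to 2.31.

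Calcium cycling genes behaved alike: 3 of 4 measured members were at least 2-fold higher, against 11.7% of all genes compared. The calcium pump of the sarcoplasmic reticulum, atp2a2a, was 3.15-fold higher (2.67 to 3.75), the calcium store protein CASQ2 2.15-fold (1.498 to 3.17) and its partner trdn 2.42-fold (1.47 to 4.22). Sorcin, SRI, a calcium-binding protein of many cell types, was 1.77-fold lower (1.30 to 2.41).

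Genes of 5 energy supply lists were higher in the border, with smaller medians than the 3 sarcomere lists. Over all 2260 genes compared, 933 had a ratio above 1 and 11.7% were 2-fold higher. Of 35 complex I genes 33 had a ratio above 1 and 9 passed 2-fold (median log2 0.75). Of 40 genes of complexes III and IV and the ATP synthase 37 had a ratio above 1 and 11 passed 2-fold, or 7 with each gene's top section left out (median 0.78). Core subunits of this respiratory chain are encoded in the mitochondrial genome itself. Its 11 measured genes were all above 1, with 7 past 2-fold (median 1.12). Citrate cycle and fatty acid oxidation genes passed 2-fold in 11 of 27 (median 0.79), and glycolysis genes in 6 of 17 (median 0.69). None of the members of these 5 lists was 2-fold lower. A further energy list, creatine kinase and adenine nucleotide carriers, had a median of 1.67, above those of the 3 sarcomere lists. Of its 7 measured genes 4 were at least 2-fold higher and 1 lower.

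The muscle creatine kinase ckma, which buffers ATP beside the sarcomere, had 1270.1 to 5046 CPM in border sections with a median of 3165 CPM, against 106 to 1059 CPM with a median of 459.8 CPM on the injury side. The groups did not overlap, and the fold was 5.04 (4.37 to 5.83). Its mitochondrial counterpart CKMT2 (ENSDARG00000039929) stood at 212 CPM in the border and 35.8 CPM on the injury side, 5.91-fold higher (3.31 to 11.6). A creatine kinase of the brain type behaved otherwise. CKB (ENSDARG00000069752) was 2.01-fold lower (1.52 to 2.65), a call lost without section 1 (ratio 0.630), and the other CKB (ENSDARG00000043257) stood at 453 CPM in the border and 397 CPM on the injury side.

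The fatty acid carrier FABP3 was 2.46-fold higher (2.12 to 2.86) and ACADVL, which starts the oxidation of long fatty acids, 4.19-fold (2.90 to 6.26). Among mitochondrial genome genes, MT-ATP6 had 14812 CPM in the border and 6573 CPM on the injury side (2.25-fold, 2.15 to 2.36). In glycolysis, GAPDH was 3.64-fold higher (3.25 to 4.07), ALDOA (ENSDARG00000034470) 3.40-fold (2.96 to 3.92) and the muscle phosphoglycerate mutase PGAM2 3.67-fold (2.32 to 6.14).

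In the examples below, isoforms that mammals use in muscle and isoforms of wide use differed. Of these, ENO3, cox7a1 and COX7A2 were chosen after their values were seen, and such pairs were not compared over the whole lists. ENO3, the muscle enolase, was 2.63-fold higher in the border (2.19 to 3.17), and ENO1, the widely used one, 1.12-fold (0.997 to 1.26). The cytochrome oxidase subunit cox7a1, the heart and muscle form, was 3.01-fold higher (2.52 to 3.63), and COX7A2 1.21-fold (0.953 to 1.54). GAPDHS, a GAPDH paralog, stood at 574 CPM in the border, 746 CPM on the injury side and 216 CPM in remote muscle, the reverse order of GAPDH.

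Further genes among the 12 with the highest lower bound of the fold were myoglobin, a phosphatase and a receptor. Myoglobin, mb, which stores oxygen in muscle, had 7144 to 25566 CPM in border sections and 580.4 to 7197 CPM on the injury side. The lowest border section fell just under the highest injury-side one, and the fold was 3.51 (3.33 to 3.70). The phosphatase ptp4a3a stood at 324 CPM in the border, 53.7 CPM on the injury side and 322 CPM in remote muscle (6.03-fold over the injury side, 3.75 to 10.3). Its pooled border level was thus near that of remote muscle, but sections 11 to 16 held 136 to 326 CPM and sections 17 to 19 held 385 to 702 CPM. The mitochondrial protein gene CHCHD10 was 5.83-fold higher (3.09 to 12.4), and pln1 4.67-fold (3.62 to 6.13).

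The orphan receptor gene GPR22 had 87 counts in the border and 3 on the injury side, a ratio of 10.7 with a wide interval (3.54 to 52.9). Without section 8, which held 66.7% of its injury-side counts, the ratio was 25.9. Of all 12, 8 had every border section above every deep injury-side section, against 50 of all 2260 genes (2.21%). The 12 were chosen by their fold in these same sections, so a larger share is built in by the choice.

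Most of the higher genes stood in remote sections within 1.5-fold of their border level or above it. The same split was not made for all genes compared, and it does not show which cells held the RNA. Of the 220 genes that were higher with the top section left out, remote muscle was at least 1.5-fold above the border for 67, within 1.5-fold for 129 and at least 1.5-fold below it for 24. The position of a list's summed level between injury side (0) and remote muscle (1) was 0.475 for thick filament genes, 0.526 for complex I, 0.710 for thin filament genes and 0.994 for Z-disc and stress-responsive genes. The Z-disc and stress-responsive list summed to 15060.3 CPM in the border against 15111 CPM in remote muscle, but its members were split. Over remote muscle the border ratio was 3.19 for nppb, 1.88 for MUSTN1 and 1.13 for HSPB1, and under 1 for Z-disc genes such as actn2b (0.628), MYOZ2 (0.876) and the titin-binding tcap (0.513). The thick filament list stood at 22888 CPM in the border against 40395 CPM in remote muscle.

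**Figure D3:**
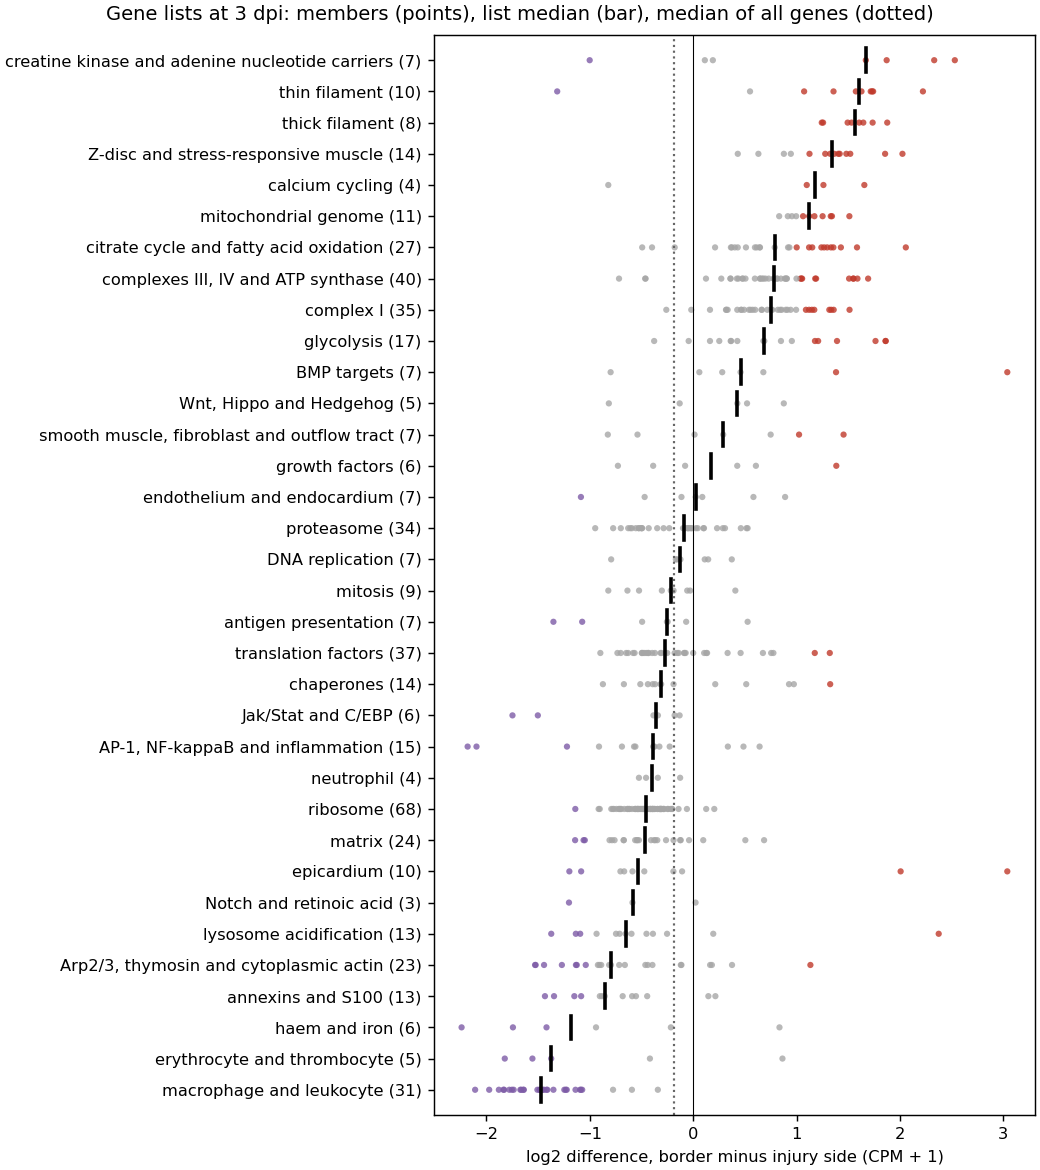
Log2 difference between border and injury side (horizontal axis, from CPM + 1) for the measured members of the 34 gene lists with at least 3 of them (rows, with the number measured). Points are genes, red at least 2-fold higher and purple at least 2-fold lower, bars are list medians, and the dotted line is the median of all genes at -0.19. Muscle and energy lists lie at the top right and leukocyte, erythrocyte and iron lists at the bottom left.

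A smaller group of genes had its highest pooled level in the border. At least 1.5-fold above both injury side and remote muscle, also without the top border section, were 34 genes (1.5%), of which 31 had names and 22 were also 2-fold above the injury side. This count moved with the rules, to 22 under median-of-ratios scaling (12 of the 34 among them), to 5 at 2-fold, to 78 with means of section CPM and to 189 with medians. Beside nppb, the genes of highest level were DES, MUSTN1 and MYH6.

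MYH6 (ENSDARG00000079564), a cardiac myosin heavy chain gene that carries this symbol in the name table, had 439.9 to 878 CPM in border sections with a median of 733 CPM, against 0 to 518 CPM with a median of 262 CPM on the injury side and a median of 244 CPM in remote sections. In 8 of 9 border sections it exceeded every deep injury-side section, and section 18 was the exception. It was 2.39-fold above the injury side (1.94 to 2.98) and 2.30-fold above remote muscle (2.07 to 2.55). The name table gives the same symbol, in small letters, to ENSDARG00000090637. That ID had 0 counts in the border, 0 on the injury side and 1 in remote muscle. Desmin, DES, the intermediate filament of muscle, stood at 2250.5 CPM in the border, 821 CPM on the injury side and 1387 CPM in remote muscle. MUSTN1, a small nuclear protein gene of muscle and skeleton, stood at 1935 CPM, 731 CPM and 1029 CPM in the same order.

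Of the atrium and conduction list nppa and the ID with the capital symbol MYH6 alone reached 50 counts. The lists were matched by symbol, so that ID is not shown to be an atrial gene. SMAD1, which carries the BMP signal from receptor to nucleus, was among the 34. Border sections held 37.1 to 162 CPM with a median of 96.7 CPM, against 0 to 78.4 CPM with a median of 0 CPM on the injury side, where 6 of 10 sections had no count. Of the border sections 5 exceeded every deep injury-side section and the rest overlapped. SMAD1 was 2.70-fold above the injury side (1.505 to 5.25, from 95 counts in the border and 13 on the injury side) and 2.33-fold above remote muscle (1.77 to 3.08). With sections 13 to 19 against 1 to 8 the fold over the injury side was 1.96, under 2-fold.

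The other named border genes had lower counts. The semaphorin gene sema3gb, of a family of secreted guidance factors, stood at 126 CPM in the border, 53.7 CPM on the injury side and 42.3 CPM in remote muscle. BAG2, a co-chaperone of Hsp70, stood at 87.1 CPM, 29.9 CPM and 44.1 CPM in the same order. The peptidase gene THOP1 was 2.64-fold above the injury side (1.19 to 6.89) from 50 counts in the border and 7 on the injury side. Single sections moved these folds: THOP1 was at 5.42 without section 1 and BAG2 at 5.03 without section 9.

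The remaining 6 of the 12 leading border genes were STRN3, a phosphatase scaffold, si:ch211-210c8.6, the ubiquitin enzyme ube2nb, the mitochondrial carrier slc25a55a, the poly(A) polymerase PAPOLA, and igldcp. Their folds over the injury side ran from 2.01 for STRN3 to 3.17 for PAPOLA. STRN3 and slc25a55a, at 2.01 and 2.06, each kept 2-fold in 14 of 27 alternative settings, with a lowest value of 1.48 for STRN3, from medians of section CPM, and of 1.74 for slc25a55a, with sections 10 and 11 left out. The fold of igldcp was 1.90 without section 11 and 1.66 with sections 13 to 19 against 1 to 8, its lowest. All 11 leading border genes other than nppb overlapped between border and deep injury-side sections.

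**Figure D4:**
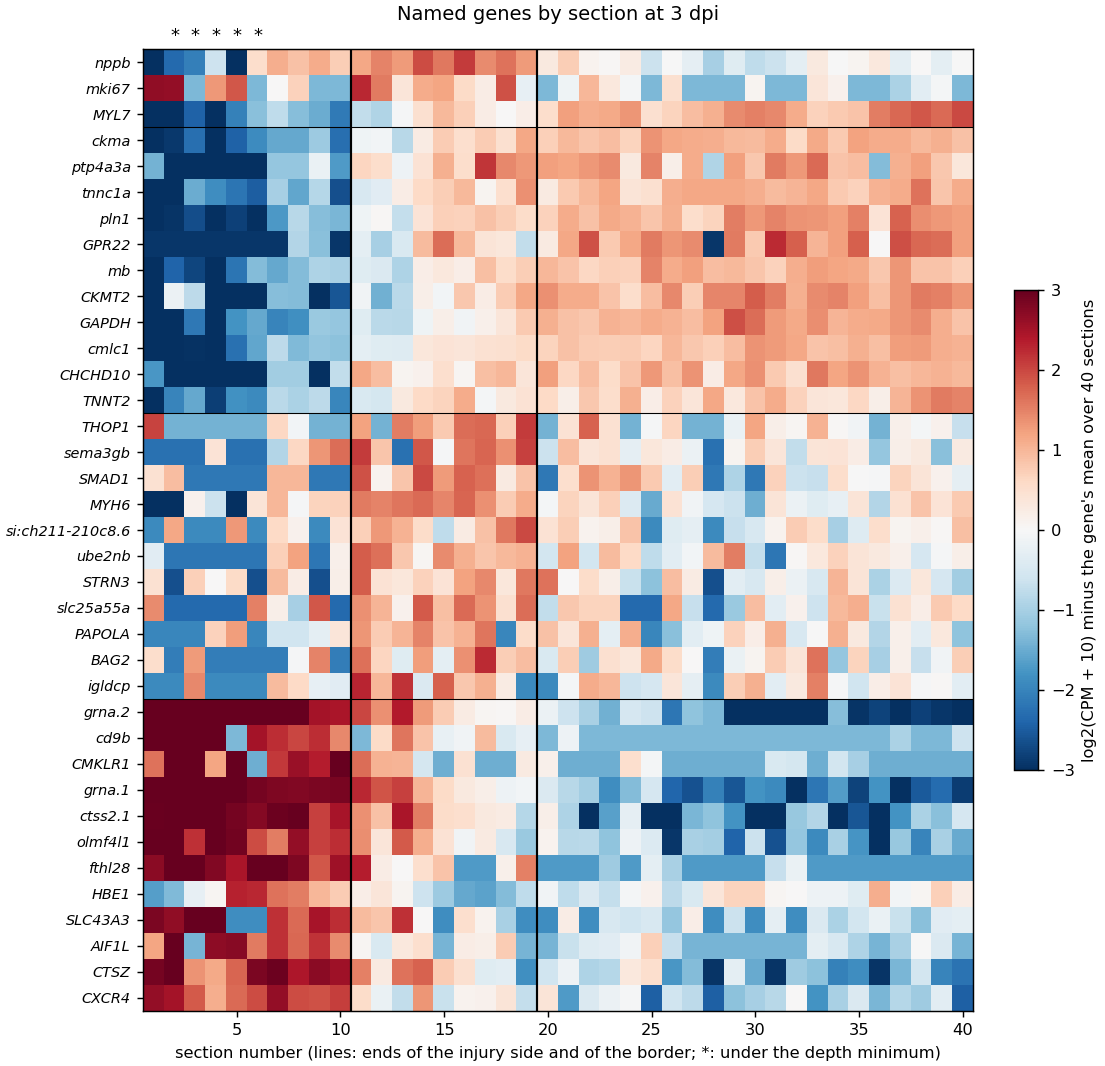
Level of 37 named genes (rows) in the 40 sections of the 3 dpi heart (columns), as log2(CPM + 10) minus the mean of the gene over sections. From the top are the 3 markers, 11 genes higher in the border, 11 border genes and 12 genes lower in the border, with vertical lines after sections 10 and 19, and the higher genes stay high to section 40 while the border genes are paler there.

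Because border sections held more muscle RNA, counts of stress genes were also set against MYL7 counts of the same sections, a ratio that no scaling of the totals can change. The ratio was computed after the values were seen. On it, the injury side stood above the border for nppb, with 20.5 counts per 100 MYL7 counts in the border (95% counting interval 19.3 to 21.9), 34.5 on the injury side (29.3 to 40.6) and 2.98 in remote muscle (2.81 to 3.17). The same order held for nppa, with 33.1 in the border (31.4 to 34.8), 47.1 on the injury side (40.7 to 54.5) and 16.02 in remote muscle (15.6 to 16.5). MYH6 had 11.2 in the border (10.4 to 12.2), 17.3 on the injury side (13.8 to 21.4) and 2.27 in remote muscle (2.12 to 2.43). Within the border, however, MYH6 had 21.9 in sections 11 to 13 (18.7 to 25.6), above the injury side, and 9.21 and 9.20 in sections 14 to 16 and 17 to 19. MUSTN1, DES and HSPB1 were ordered alike, with 30.5, 35.5 and 66.0 in the border, 42.3, 47.5 and 96.7 on the injury side, and 7.52, 10.1 and 27.1 in remote muscle. HSPB1 had 88.8 in sections 11 to 13 (80.7 to 97.6), 56.6 in sections 14 to 16 and 70.0 in sections 17 to 19.

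For SMAD1 the intervals of border and injury side overlapped, at 1.65 (1.33 to 2.02) and 2.25 (1.19 to 3.87) per 100 MYL7 counts, and remote muscle had 0.328 (0.272 to 0.391). The sarcomere gene TNNT2 had 77.6 in the border (74.6 to 80.7), 85.3 on the injury side (75.5 to 96.4) and 50.2 in remote muscle (49.3 to 51.1), so MYL7 itself was not in a fixed ratio to other sarcomere genes. In contrast, ckma had more counts per 100 MYL7 counts in the border, 48.3 (46.2 to 50.6), than on the injury side, 35.2 (29.9 to 41.4), or in remote muscle, 33.5 (32.8 to 34.2). That excess was absent in the middle of the border, where ckma had 56.5 in sections 11 to 13 (50.6 to 62.9), 35.6 in sections 14 to 16 (33.2 to 38.2) and 65.2 in sections 17 to 19 (60.6 to 70.2). Within the border the nppb ratio was 30.5 in sections 11 to 13 (26.6 to 34.8), 18.2 in sections 14 to 16 (16.6 to 19.9) and 19.4 in sections 17 to 19 (17.2 to 21.8). The ratio of cmlc1, a light chain of the same filament, was 198 in sections 11 to 13, 126 in sections 14 to 16 and 205 in sections 17 to 19. DES and MUSTN1 varied within the border in the same order as each other, with 61.9 and 51.2 in sections 11 to 13, above their pooled injury-side ratios, 21.8 and 21.3 in sections 14 to 16, and 44.6 and 35.1 in sections 17 to 19.

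**Figure D5:**
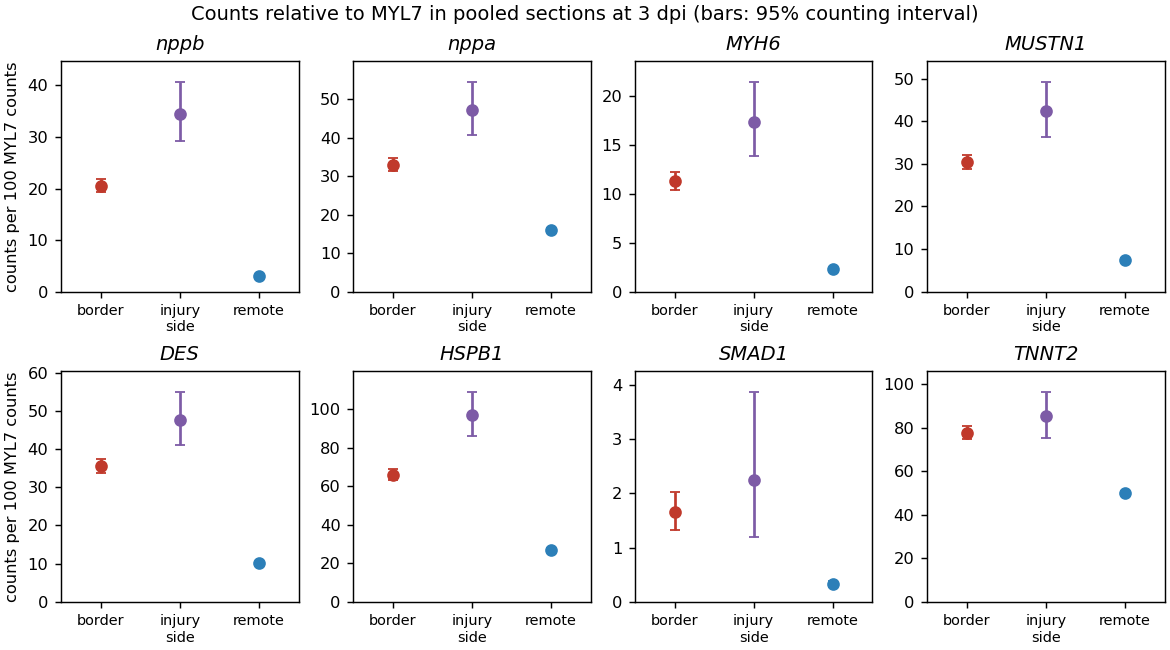
Counts of 8 genes per 100 MYL7 counts (vertical axes, each from 0) in pooled border, injury-side and remote sections of the 3 dpi heart, with 95% counting intervals as bars. For nppb, nppa, MYH6, MUSTN1, DES and HSPB1 the border lies between the higher injury side and the lower remote muscle, and for SMAD1 and TNNT2 the intervals of border and injury side overlap.

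Genes of DNA replication and mitosis did not separate border from injury side at the 2-fold limit. None of 7 measured DNA replication genes and none of 9 mitosis genes passed 2-fold in either direction, with median log2 differences of -0.12 and -0.22, near that of all genes. Both medians turned positive under median-of-ratios scaling (0.17 and 0.08). Ratios were under 1 for 4 of the 7 and for 8 of the 9, while 933 of all 2260 genes had a ratio above 1. Among members under 50 counts, ccnb3, RFC3, NCAPD2, TTK and aurka had intervals wholly under 1, and none had one wholly above 1. Summed DNA replication genes stood at 1373 CPM in the border, 1537 CPM on the injury side and 712 CPM in remote muscle. Summed mitosis genes stood at 1286 CPM, 1648 CPM and 566 CPM in the same order, so both groups exceeded remote muscle.

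PCNA, the sliding clamp of DNA synthesis, stood at 622 CPM in the border and 698 CPM on the injury side (ratio 0.890, 0.763 to 1.04), and RRM2, a subunit of the enzyme that makes deoxynucleotides, at 112 CPM in the border and 86.6 CPM on the injury side (1.30, 0.853 to 2.04). CDK1, the kinase that starts mitosis, had a ratio of 0.859 (0.616 to 1.21). TOP2A, which untangles chromosomes, was the lowest at 45.2 CPM in the border and 80.6 CPM on the injury side (0.561, 0.337 to 0.948). The sum of mitosis genes was uneven on the injury side, at 2152 CPM in section 1, 1195 CPM in sections 2 to 6 and 1700 CPM in sections 7 to 10. In the border it stood at 1414 CPM in sections 11 to 13, 1284 CPM in sections 14 to 16 and 1175 CPM in sections 17 to 19.

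Of the BMP pathway, ligands were at the limit of detection. The 9 matched ligand genes summed to 8 counts in the border and 0 on the injury side, where a count of 0 allows up to 3 counts or 8.96 CPM, and the border sum was 8.82 CPM. None reached 50 counts. Of 10 matched receptor and Smad genes SMAD1 alone was measured, and the list summed to 231 CPM in the border and 170.1 CPM on the injury side.

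Among all 2260 genes compared, 11.7% were at least 2-fold higher. A count from the few genes below is not read as a result about the pathway. Of 7 measured genes known as BMP targets, 2 were at least 2-fold higher and none lower (median log2 0.46). They were TBX20 and GATA5, transcription factors of heart development (GATA5 named after its value was seen). TBX20 had 51 counts in the border and 2 on the injury side, a ratio of 9.41 (2.48 to 79.8), and stood at 56.2 CPM in the border and 65.6 CPM in remote muscle. GATA5 was 2.66-fold higher (1.36 to 5.78).

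The Id genes, repressors of helix-loop-helix factors, were split. The gene id2b was 1.60-fold above the injury side (1.17 to 2.24) and 2.16-fold above remote muscle (1.80 to 2.58), and was 1 of the 34 border genes by pooled levels. Its sections overlapped, and the highest border section, at 371 CPM, lay below injury-side section 10 (418.5 CPM) and remote section 20 (447.5 CPM). ID1 stood at 272 CPM in the border, 224 CPM on the injury side and 67.1 CPM in remote muscle, with a ratio to the injury side of 1.22 (0.935 to 1.60). ID3 had a ratio of 1.04 (0.698 to 1.59) and ID2 of 0.571 (0.361 to 0.913). Of 2 measured antagonists and modulators, FSTL1 had a ratio of 1.098 (0.838 to 1.45) and HTRA1, a secreted protease, was 2.22-fold lower (1.67 to 2.94), with a ratio of 0.524, under 2-fold, without section 1.

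Other signalling lists held few measured genes. Shares over all genes compared were 11.7% at least 2-fold higher and 10.6% lower. The small counts of these lists are not read as results about the pathways. In the Jak/Stat and C/EBP list 2 of 6 were at least 2-fold lower, of which CEBPB, a transcription factor of myeloid cells and acute inflammation, stood at 111 CPM in the border and 376 CPM on the injury side (3.38-fold lower, 2.58 to 4.43). The other was one of the SOCS3 genes (ENSDARG00000026611), a feedback inhibitor, at 2.87-fold lower (1.93 to 4.27), while the other SOCS3 (ENSDARG00000025428) had a ratio of 0.882 (0.696 to 1.13). Of 6 growth factor genes 1 passed 2-fold, VEGFA, which drives blood vessel growth, at 2.68-fold higher (1.27 to 6.49) from 58 counts in the border and 8 on the injury side. Midkine, MDK, was 1.66-fold lower (1.38 to 1.98).

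Of 15 AP-1, NF-kappaB and inflammation genes 3 were at least 2-fold lower, against 10.6% of all genes compared. Clusterin, CLU, a secreted chaperone, stood at 20.9 CPM in the border and 98.5 CPM on the injury side (4.70-fold lower, 2.60 to 8.76), and the others were nfkbiaa, an inhibitor of NF-kappaB (2.36-fold lower, 1.45 to 3.84), and the chemokine receptor gene CXCR4. JUNB was 1.61-fold lower (1.36 to 1.91). No measured Wnt, Hippo or Hedgehog gene of 5 passed 2-fold, with WWTR1, a Hippo coactivator, at 1.85 (1.19 to 2.96) and YAP1 at 0.913 (0.658 to 1.28). ALDH1A2, which makes retinoic acid in epicardium and endocardium, was 1.504-fold lower (1.23 to 1.83). Of 3 Notch and retinoic acid genes, 1 was at least 2-fold lower, the receptor gene rxrbb at 2.33-fold (1.40 to 3.88), which lost 2-fold without section 10 (ratio 0.595). The 2 measured TGF-beta genes, TGFB3 and TGFBR2, had ratios of 1.60 (0.902 to 3.02) and 1.41 (0.905 to 2.26).

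Leukocyte genes were lower in the border as a group. Of 31 measured macrophage and leukocyte genes 28 were at least 2-fold lower, or 25 with each gene's top section left out, and none higher. The median log2 difference was -1.47. Among all 2260 genes compared, 240 (10.6%) were at least 2-fold lower. Summed, the list had 3829.5 to 10932 CPM in border sections with a median of 4694 CPM, against 12507 to 26209 CPM with a median of 16198 CPM on the injury side, with no overlap. Remote muscle stood at 1851 CPM. The decline ran through both groups, at 21717 CPM in section 1, 17868 CPM in sections 2 to 6, 15275 CPM in sections 7 to 10, 9701 CPM in sections 11 to 13, 5102 CPM in sections 14 to 16 and 4321 CPM in sections 17 to 19.

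Granulin genes were among the 12 leading lower genes. The gene grna.2, of the secreted granulin family used by macrophages, had 216 to 1134 CPM in border sections with a median of 362 CPM, against 1176 to 6087 CPM with a median of 3654 CPM on the injury side. The groups did not overlap, and the pooled level was 5.97-fold lower (5.30 to 6.73). Its paralog grna.1 was 4.39-fold lower (4.03 to 4.78), also with no overlap. Reads of such near-identical genes may have been split between them, so the values of each are uncertain.

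Cathepsins, proteases of the lysosome, followed. The gene ctss2.1 stood at 141 CPM in the border and 612 CPM on the injury side (4.34-fold lower, 3.46 to 5.45), and CTSZ at 118 CPM in the border and 465.7 CPM on the injury side (3.95-fold lower, 3.07 to 5.10). CTSZ did not overlap in deep sections, with 11.7 to 253 CPM in border sections against 403 to 580.4 CPM in deep injury-side sections.

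Surface and migration genes were lower as well. CXCR4, the receptor of CXCL12, had 22.7 to 126 CPM in border sections against 194 to 329 CPM in deep injury-side sections, without overlap (4.33-fold lower, 3.01 to 6.30). CMKLR1, the chemerin receptor of macrophages, was 6.83-fold lower (4.15 to 11.6) and the tetraspanin gene cd9b 7.70-fold (4.49 to 13.8), on 23 and 19 counts in the border and 58 and 54 on the injury side. Coronin, CORO1A, of the leukocyte cortex, was 2.72-fold lower (2.37 to 3.13), and the lysozyme gene lygl1 3.38-fold (2.91 to 3.92). The remaining genes by the same rule were olmf4l1, the transporter SLC43A3 and AIF1L, at 3.99-fold, 4.84-fold and 5.76-fold lower.

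The antigen presentation chaperones cd74a and cd74b were 2.11-fold and 2.56-fold lower (1.91 to 2.33 and 2.22 to 2.94; cd74a lost 2-fold without section 10, with a ratio of 0.513), while b2m, a subunit of MHC class I on most cells, had a ratio of 0.838 (0.774 to 0.908). Not every leukocyte gene followed. NCF1, part of the oxidase of phagocytes, stood at 37.5 CPM in the border, 47.8 CPM on the injury side and 5.47 CPM in remote muscle, with a ratio to the injury side of 0.785 (0.421 to 1.52). None of the 4 measured genes of the neutrophil list passed 2-fold, and they are not specific to neutrophils. The defining neutrophil gene lyz had 1 count in the border and 8 on the injury side. No lymphocyte gene reached 50 counts, and the list summed to 38 counts in the border and 36 on the injury side. As levels these were 41.9 CPM in the border and 107.5 CPM on the injury side, 2.57-fold lower in the border.

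Iron and red cell genes were lower in the border. Among all genes compared, 10.6% were at least 2-fold lower. Of 6 haem and iron genes 3 were at least 2-fold lower: the ferritins fthl27 and fthl28, and HMOX1, which breaks down haem. HMOX1 stood at 385 CPM in the border, 1029.8 CPM on the injury side and 56.5 CPM in remote muscle (2.68-fold lower than on the injury side, 2.30 to 3.12). The ferritin fthl28 was 4.81-fold lower (3.22 to 7.27), with section 11 holding 45.0% of its border counts, and its ratio was 0.131 with section 11 left out. The ferritin fth1a did not follow, at 814 CPM in the border, 946 CPM on the injury side and 1267 CPM in remote muscle.

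Of 5 erythrocyte and thrombocyte genes 3 were at least 2-fold lower: cahz, the red cell carbonic anhydrase, alas2, the first enzyme of haem synthesis in red cells, and SLC4A1, their anion exchanger. The share over all genes compared was 10.6%. The globin gene HBE1 (ENSDARG00000089087) ran from 2609 to 10170.3 CPM in border sections and from 2502 to 39427 CPM in injury-side sections. The groups overlapped, with injury-side sections 1 to 4 within or below the border range, and the pooled level was 3.29-fold lower in the border (3.17 to 3.42). Several red cell genes had a pooled border level below the pooled levels of both injury side and remote muscle. By a rule chosen after the values were seen, 8 genes were at least 1.5-fold lower in the border than in both neighbours. Among them were cahz, with 95.9 CPM in the border, 284 CPM on the injury side and 221 CPM in remote muscle, alas2 with 38.6 CPM, 102 CPM and 90.1 CPM, and a second HBE1 gene (ENSDARG00000069734).

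Matrix genes differed less. Of 24 measured matrix genes 21 had a ratio under 1, and 3 were at least 2-fold lower, or 1 with each gene's top section left out (median log2 -0.47). Over all genes 10.6% were 2-fold lower, and 933 of 2260 had a ratio above 1, so most genes lay under 1. Collagen I genes stood at 819 CPM in the border and 1412 CPM on the injury side for COL1A1, and at 538 CPM in the border and 794 CPM on the injury side for col1a1a. The sum of the list was highest in section 1, 13010.4 CPM, and did not fall evenly from there. It stood at 5648 CPM in sections 2 to 6, 7929 CPM in sections 7 to 10 and 7415 CPM in sections 11 to 13. In sections 14 to 16 it stood at 4912 CPM, and in sections 17 to 19 at 5519 CPM.

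Of 10 epicardium list genes 2 were at least 2-fold lower, krt4 and ANXA1 (ratio 0.605 without section 1, under 2-fold), and 2 higher, TBX20, which heart muscle also uses, and CAVIN1, a coat protein of caveolae, at 4.18-fold (1.83 to 11.8). Shares over all genes compared were 10.6% lower and 11.7% higher. The keratins krt8 and krt94, intermediate filaments of epithelia, stood at 2518 CPM and 1381 CPM in the border and at 3496 CPM and 2194 CPM on the injury side. The epicardial factors TCF21 and wt1b had 10 and 11 counts in the border and 13 and 7 on the injury side, too few to compare. The endothelial list had a median log2 difference of 0.02, or -0.13 without the shallow sections, and summed to 781 CPM in the border and 776 CPM on the injury side. Among them klf2a, a factor induced by flow, was 2.14-fold lower (1.36 to 3.35; ratio 0.538 without section 1, under 2-fold) and the cadherin gene cdh5 stood at 1.87-fold (1.07 to 3.50).

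Genes shared by smooth muscle and other cells gave no single direction. In that list 2 of 7 were at least 2-fold higher, DES, which heart muscle makes, and a myosin light chain gene, MYL9 (ENSDARG00000008030), at 2.04-fold (1.64 to 2.55) and at 1.79-fold without section 16. The share of all genes at least 2-fold higher was 11.7%. TAGLN (ENSDARG00000033466), an actin-binding protein of smooth muscle, was 1.77-fold lower (1.44 to 2.18). No nerve or glia gene was measured, and 10 of 13 had no count in the border.

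Cytoplasmic actin genes were lower in the border. The list of Arp2/3, thymosin and cytoplasmic actin genes, which drive cell movement, took 31654 CPM in the border and 64817 CPM on the injury side. Of its 23 measured genes 7 were at least 2-fold lower, or 6 with each gene's top section left out, and 1 higher. Shares over all genes compared were 10.6% lower and 11.7% higher. Thymosin tmsb4x, which holds actin monomers, stood at 8074 to 22612 CPM in border sections against 23925 to 36729 CPM in deep injury-side sections, without overlap (2.41-fold lower, 2.35 to 2.48). Profilin, pfn1, was 2.88-fold lower (2.67 to 3.10), and actb2 1.74-fold (1.68 to 1.79). ANXA2, a membrane-binding annexin, was 2.22-fold lower (2.06 to 2.39) and icn, an S100 family gene, 2.70-fold (2.54 to 2.88), and 4 of 13 genes of that list passed 2-fold. These genes moved with the leukocyte list, and the part of leukocyte RNA in them was not tested.

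Most protein synthesis and turnover genes stayed under 2-fold, although ribosomal protein genes were lower in the border as a group. Of 68 ribosomal protein genes 66 had a ratio under 1, with a median log2 of -0.45, and 1 passed 2-fold, rpl7a, which lost it without section 8 (ratio 0.576). Over all 2260 genes 933 had a ratio above 1, so most genes lay under 1. The sum of ribosomal protein genes was 123157 CPM in the border and 172425 CPM on the injury side. It stood at 193530 CPM in section 1, 236738 CPM in the shallow sections 2 to 6 and 148557 CPM in sections 7 to 10. In the border it stood at 136925 CPM in sections 11 to 13, 110731 CPM in sections 14 to 16 and 124837 CPM in sections 17 to 19. Translation factors had a median of -0.27 with 2 of 37 at least 2-fold higher, EIF2S1 and EEF2, at 2.55-fold (1.30 to 5.55) and 2.27-fold (1.68 to 3.11). None of 34 proteasome genes passed 2-fold (median -0.09). The medians of translation factors and proteasome turned positive under median-of-ratios scaling, at 0.027 and 0.20. Of 14 chaperone genes HSPB1 alone was 2-fold higher, and HSP90B1, of the endoplasmic reticulum, was 1.84-fold lower (1.44 to 2.33). Of 13 proton pump genes of the lysosome 3 were at least 2-fold lower and 1 higher, against 10.6% and 11.7% of all genes compared.

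Paralogs under 1 symbol could differ in direction. Of 47 symbols borne by several measured IDs, 5 had IDs at least 2-fold apart with intervals on opposite sides of 1, in a search made after the values were seen. The fibronectin gene FN1 (ENSDARG00000019815), a component of wound matrix, stood at 409 CPM in the border, 854 CPM on the injury side and 103 CPM in remote muscle. The other FN1 (ENSDARG00000006526) stood at 817 CPM, 508 CPM and 1064 CPM in the same order. ATP6V0C (ENSDARG00000036577), a proton pump subunit, was 5.46-fold higher (2.24 to 17.3) from 74 counts in the border and 5 on the injury side, and ATP6V0C (ENSDARG00000057853) 2.14-fold lower (1.75 to 2.60).

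The cytochrome oxidase genes COX5B and COX6A1 each had an ID 2.94-fold and 2.93-fold higher (ENSDARG00000068738 and ENSDARG00000054588), beside an ID with a ratio of 0.724 and 0.607 (ENSDARG00000015978 and ENSDARG00000022438). The fifth symbol was GRB10, an adaptor of growth factor receptors, with ratios of 1.97 (1.18 to 3.46) for ENSDARG00000002013 and 0.508 (0.291 to 0.898) for ENSDARG00000035308.

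The border was not uniform. From sections 11 to 13 through sections 14 to 16 to sections 17 to 19, MYL7 stood at 3464, 8952 and 5991 CPM, and GAPDH at 2458, 3628 and 5041 CPM. In the same order grna.1 stood at 1927, 691 and 439 CPM, and MYH6 at 759, 825 and 551 CPM. With sections 10 and 11, on both sides of the boundary, left out, 260 genes were higher and 248 lower, and 181 of the 220 higher and 132 of the 165 lower genes were kept.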

How the data were processed

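RNA of single 12 µm cryosections was read by CEL-seq, per the labels' protocols, with TRIzol extraction, and sequenced in pairs on a NextSeq, per the design text. The deposited table holds whole-number counts per Ensembl gene ID and section, with BWA 0.6.2 listed among the tools in the submitters' processing notes. Neither genome build nor annotation, nor any use of molecular identifiers, is given in the sources used here. Near-identical genes may share reads. The table has 16476 gene rows and 19 rows of synthetic spike-in RNA, which were left out of all totals (41 spike-in counts in the border and 30 on the injury side). Of the gene IDs, 13441 had a symbol in the table of gene names used (29201 rows), whose symbols are printed as it gives them, in capitals or not, and no column of other samples was found.

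Counts were summed over the 9 border, 10 injury-side and 21 remote sections of the 1 heart at 3 dpi and scaled to CPM. Ratios carry exact 95% Poisson intervals, which cover counting error within these sections only, and sections of 1 heart are not replicates. Genes with at least 50 counts over sections 1 to 19 were compared (2260), a difference was called at 2-fold, and a pseudocount of 1 CPM entered log2 values only. A border gene was at least 1.5-fold above both neighbours, also without its top section. The depth minimum was 20% of the 75th percentile of section totals. A count of 0 was taken to allow up to 3 counts. The section limits, the markers and the 41 gene lists were chosen with earlier results of these data known.

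The text names nppb, mki67 and MYL7. It also names the 12 higher genes with the highest lower bound, the 12 lower genes with the lowest upper bound and the 12 border genes with the highest smaller fold. In each list it names, from the 4 members of most counts and the members of highest and lowest fold, those that describe the list; others are said to be chosen after their values were seen or make up a count that is given. The calls were checked on simulated counts, but no outcome of that check is given here, so it lends the calls no support. Python 3.11.15, numpy 2.4.6, pandas 2.3.3, SciPy 1.17.1 and matplotlib 3.10.9 were used. Alternatives were other scalings, count minimums, section limits, summaries over sections and pseudocounts, and each section left out in turn.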

Additional observations from a re-analysis of the deposited data

Results flagged for a closer look

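The summed level of each gene list was looked at for sections far from the others of their group, in 74 groups of sections, and 3 were found, where chance alone gives about 1 in 20 groups. The 3 found do not exceed that share. Growth factor genes stood at 1565 CPM in border section 13, against 866 to 1063 CPM in the other border sections. Jak/Stat and C/EBP genes stood at 3544 CPM in injury-side section 2, against 941 to 2075 CPM in the other injury-side sections. Lysosome acidification genes stood at 3544 CPM in the same section 2, against 1015 to 2356 CPM in the others. Section 2 lay under the depth minimum and section 13 above it.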

How the results depend on the processing

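No paired analysis over animals was possible because border and injury side came from 1 heart at 3 dpi. Under median-of-ratios scaling 409 genes were higher and 127 lower (349 and 85 with the top section left out), 22 were border genes, and the folds were 2.69 for nppb and 4.52 for MYL7. A count minimum of 20 gave 621 and 717 (471 and 407, 150 border genes), one of 100 gave 156 and 120 (133 and 94, 13 border genes), and none gave 4061 and 3531 (2171 and 1212, 789 border genes), since other numbers of genes were compared. Means of section CPM gave 78 border genes and folds of 2.92 for nppb and 4.57 for MYL7, and medians gave 589 and 564 higher genes, 189 border genes and folds of 2.73 and 4.86. Without the 5 shallow sections the folds were 1.87 for nppb and 3.27 for MYL7, with sections 13 to 19 against 1 to 8 they were 2.68 and 4.14, and without the 10 IDs of highest count MYL7 stood at 4.15. Border genes numbered 5 at 2-fold. The cause of these shifts was not tested.

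List medians changed sign in these cases. Under median-of-ratios scaling they were 0.17 for DNA replication, 0.081 for mitosis, 0.20 for proteasome, 0.027 for translation factors and 0.046 for antigen presentation, beside 0.11 for all genes. Medians of section CPM gave 0.13 for DNA replication, 0.081 for proteasome and 0.036 for translation factors, beside 0.10 for all genes. Means gave 0.053 for DNA replication, and totals without the 10 IDs gave 0.052 for DNA replication and 0.083 for proteasome. Without shallow sections the medians were -0.13 for endothelium and -0.11 for growth factors, and with no count minimum -0.20 for growth factors.

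With each of the 19 sections left out in turn, higher genes numbered 231 to 308 and lower genes 217 to 265 (187 to 252 and 144 to 186 with the top section left out), and border genes 28 to 51. The folds ran from 1.92 to 2.47 for nppb, 1.11 to 2.18 for mki67 and 3.28 to 4.62 for MYL7. The median ran from -0.20 to 0.13 for DNA replication, -0.18 to 0.49 for endothelium and -0.0075 to 0.55 for growth factors, and 14 to 16 of the 34 list medians were above 0. Depth limits genes of few counts on the injury side, where 1 count was 2.98 CPM.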
